A study of Mus musculus with 12 samples.

Results

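Transcript counts of 6 F4/80+ preparations from mouse kidney were compared with those of 6 whole kidneys, gene by gene, over all 12 libraries of the study. The genes were the protein-coding rows that the deposited tables of both sample types shared by identifier, without the mitochondrial chromosome. They numbered 13733 of 15361 genes in the kidney table and of 13858 protein-coding genes in the F4/80+ table, and 13578 passed a filter on low counts and were tested. The unit of level is CPM, in which each library sums to 1000000 over these 13733 genes, so that the same genes made up the total in both sample types. The mice had been edited with CRISPR-Cas9 to be Arg/Arg or Trp/Trp at rs3184504 in Sh2b3, and each sample type held 3 biological replicates of each genotype. Every mouse, whatever its genotype, had received angiotensin II, which constricts vessels and causes hypertension, for 4 weeks, so neither sample type had libraries from untreated mice. The F4/80+ cells were prepared from other kidneys than the whole-kidney RNA, on a Percoll gradient and then with anti-F4/80 microbeads, and polyadenylated RNA was sequenced from both. Whole kidneys had gone into a solution that preserves RNA before they were homogenized, whereas the preparations passed through the isolation. Sample type, isolation procedure and the table in which a library was deposited therefore cannot be told apart.

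The kidney is made mostly of tubule epithelium, arranged in segments from the proximal tubule through the thick ascending limb and distal convoluted tubule to the collecting duct, each with its own transporters. Fenestrated capillaries, fibroblasts, podocytes and resident macrophages, which carry F4/80 (the product of Adgre1), lie around and between the tubules. Immediate early genes such as Fos and Egr1 encode transcription factors whose transcripts are known to appear within minutes of a stimulus, without new protein synthesis, and to decay quickly.

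Libraries held 6.88 to 11.1 M counts over the compared genes in F4/80+ preparations and 17.8 to 49.9 M in kidney (M for 1000000). These were 15.4 to 28.6% and 90.5 to 91.9% of all counts deposited for them, but the totals were not alike. For F4/80+ preparations 18145 genes were deposited, of which 13858 were protein-coding, so their total also took in genes of other types. For kidney 15361 genes were deposited. The shares therefore do not compare the sample types over the same kinds of genes. Replicates of a group differed more in F4/80+ preparations: the median SD of log2(CPM + 0.5) was 0.365 against 0.109 in kidney, and it was the larger in F4/80+ preparations for 96.3% of genes tested. The first principal component held 70.4% of the variance and separated the sample types. The kidney library Trp/Trp replicate 1 stood apart from the other 5 for a set of genes given in the closing section. Sh2b3, the edited gene, was present in every library at 18.8 to 31.6 CPM in F4/80+ preparations (median 23.3) and 31.2 to 42.3 in kidney (median 38.8). Its log2 fold change, F4/80+ over kidney, was -0.69 ± 0.13 (SE; edgeR adjusted p = 2.89e-04), and it was 0.02 once GC content was taken into account as described further on.

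Against their label, the F4/80+ preparations showed no higher level of most macrophage genes than whole kidney. Adgre1, which encodes F4/80 itself, was at 1.26 to 16.7 CPM in F4/80+ preparations (median 6.46) and 4.12 to 8.33 in kidney (median 6.34), and the groups overlapped. C1qa, a complement component made by tissue macrophages, was at 0.489 to 5.25 CPM in F4/80+ preparations (median 2.68) and 14.1 to 25.1 in kidney (median 14.8), so that every preparation lay below every kidney. The log2 fold changes were 0.16 ± 0.46 (SE; edgeR adjusted p = 0.771) and -2.81 ± 0.33 (SE; edgeR adjusted p = 5.28e-06). Genes of renal epithelium were abundant in the preparations too. Umod, the uromodulin gene of the thick ascending limb, was at 1748 to 7157 CPM in F4/80+ preparations (median 3534) and 2619 to 2876 in kidney (median 2817). Lrp2, the endocytic receptor megalin of the proximal tubule, was at 1491 to 5411 CPM in F4/80+ preparations (median 2939) and 2290.3 to 2739.6 in kidney (median 2539.6). Neither passed the test, with log2 fold changes of 0.29 ± 0.25 (SE; edgeR adjusted p = 0.323) and 0.37 ± 0.24 (SE; edgeR adjusted p = 0.189). The libraries are therefore called F4/80+ preparations here, after how they were made, and not macrophages.

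Across the transcriptome, 3588 genes were higher in F4/80+ preparations (26.4% of those tested) and 5044 were lower (37.1%), by edgeR's quasi-likelihood test at an adjusted p under 0.05 with genotype as a covariate. Calls therefore covered 63.6% of genes in either direction. Against a fold of 2, tested with edgeR's glmTreat, 636 genes were beyond it as higher (4.68%) and 1234 as lower (9.09%), or 13.8% together. In 2051 genes every F4/80+ library lay above every kidney library (15.1%), and in 3680 every one lay below (27.1%), or 42.2% in either direction. Log2 fold changes ran from -0.71 at the lower quartile to 0.44 at the upper, with the 1st and 99th percentiles at -3.19 and 2.70. The median gene stood at -0.13, and the fold changes of gene groups below are to be read against that value. Scaling the libraries with TMM moved this median by 0.125 and gave 4403 higher and 4313 lower genes, so the balance of directions depended on the scaling. Fold changes past 32-fold were rare, with 12 genes higher and 18 lower. Counts of called members in the gene groups below are to be read against the 26.4% higher and 37.1% lower. For counts beyond 2-fold the shares were 4.68% and 9.09%, and for libraries without overlap 15.1% and 27.1%.

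**Figure D1:**
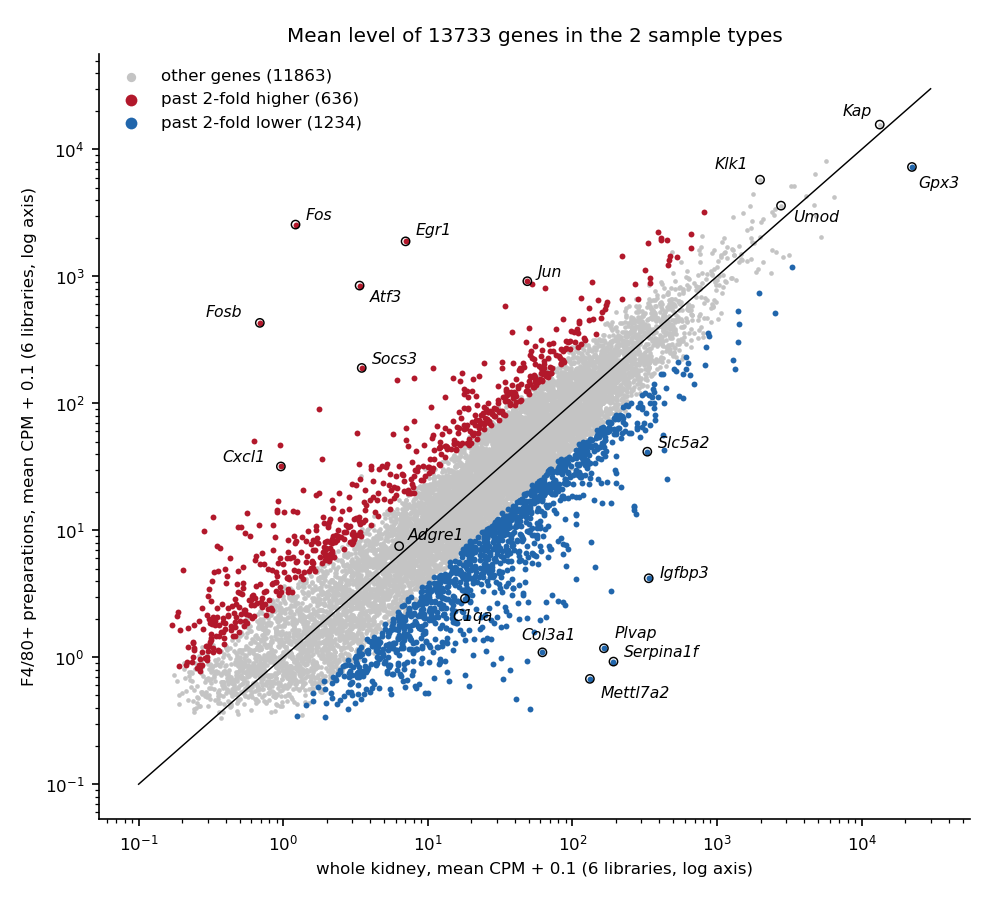
Mean CPM + 0.1 of each of the 13733 genes over the 6 whole kidneys (horizontal) and the 6 F4/80+ preparations (vertical), both on log axes, with the line of equality. Red and blue points are the 636 and 1234 genes past 2-fold in the glmTreat test, and circled genes are named: Fos, Egr1, Atf3 and Fosb lie far above the line, and Plvap, Serpina1f and Mettl7a2 far below it.

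The largest differences upward belonged to immediate early genes. Of 36 tested, 32 were higher and 2 lower, with 27 and 2 beyond 2-fold (1 of the lower with the GC offset), and their median log2 fold change was 2.90. Among all genes tested 26.4% were higher and 37.1% lower, with 4.68% and 9.09% beyond 2-fold. The list was chosen with earlier results of these data known, so its counts are a description and not a test. The summed share of counts of immediate early genes was 0.743 to 1.5% in F4/80+ preparations and 0.0974 to 0.118% in kidney. Fos, which encodes a subunit of the transcription factor AP-1 (chr12:85473890-85477273, mm10), was at 1679 to 3347 CPM in F4/80+ preparations (median 2812) and 0.756 to 1.74 in kidney (median 1.02). All 6 preparations lay about 3 orders of magnitude above all 6 kidneys, and the log2 fold change was 11.15 ± 0.27 (SE; edgeR adjusted p = 1.05e-12) and the ratio of mean CPM 2288. Fosb, its paralog, was at 249 to 664 CPM in F4/80+ preparations (median 426) and 0.113 to 1.02 in kidney (median 0.618), with a log2 fold change of 9.38. Jun, the AP-1 partner of both, was at 655 to 1059.8 CPM in F4/80+ preparations (median 943) and 38.2 to 63.2 in kidney (median 45.9), and differed by 4.24. Jun was thus well expressed in kidney, where Fos and Fosb were near 1 CPM.

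Egr1, a zinc-finger transcription factor, was at 1132 to 2443 CPM in F4/80+ preparations (median 1985) and 5.01 to 11.2 in kidney (median 5.68), with a log2 fold change of 8.06 ± 0.28 (SE; edgeR adjusted p = 7.26e-11). Its relative Egr2 was at 27.0 to 69.1 CPM in F4/80+ preparations (median 52.6) and 0.18 to 1.59 in kidney (median 0.311), a log2 fold change of 6.61. Atf3, a stress-responsive factor of the ATF family, was at 489 to 1155 CPM in F4/80+ preparations (median 891) and 1.44 to 5.97 in kidney (median 2.93) and differed by 8.01. None of these genes overlapped between sample types, as was true of 42.2% of all genes tested. Absence of overlap was also a condition for naming the largest changes. Socs3, an inhibitor of cytokine receptors, was at 91.5 to 262 CPM in F4/80+ preparations (median 212) and 2.24 to 5.59 in kidney (median 2.93) (log2 fold change 5.79). Zfp36, whose product tristetraprolin speeds the decay of AU-rich messenger RNAs, was at 459 to 1085 CPM in F4/80+ preparations (median 960.0) and 33.8 to 80.9 in kidney (median 53.7) (4.03). Nr4a1, an orphan nuclear receptor, and Gadd45b, a stress sensor, differed by 4.30 and 4.60.

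Some members of the list went the other way. Jund, an AP-1 subunit that cells keep at a steady level, was at 7.44 to 14 CPM in F4/80+ preparations (median 10.8) and 44.7 to 54.4 in kidney (median 49.2). Ccn2, the connective tissue growth factor gene, was at 13.7 to 48.5 CPM in F4/80+ preparations (median 25.5) and 143 to 243 in kidney (median 203), while its relative Ccn1 was at 311 to 436 CPM in F4/80+ preparations (median 352) and 28.3 to 49.4 in kidney (median 38.1). These 3 were named after their values were seen. The log2 fold changes were -2.15, -2.84 and 3.26, so Ccn1 and Ccn2 were beyond 2-fold in opposite directions. Dusp2 and Rhob did not pass the test, and Fosl1 and Egr4 were not held by both tables.

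Promoters were read for these genes because so many of them moved together. They are the 250 bases before the annotated start, from RefSeq, build GRCm38.p6, written 5′ to 3′ on the gene's strand, with capitals at every match to the CArG box (a run of A and T between CC and GG, the site of serum response factor), to TGACGTCA (the cyclic AMP response element) and to its TGACG core, which lies within the longer motif, on either strand. The windows shown are chr12:85473640-85473889 (+ strand) for Fos, chr7:19310046-19310295 (− strand) for Fosb, chr1:191183334-191183583 (− strand) for Atf3, chr15:101266596-101266845 (+ strand) for Nr4a1, chr10:67537619-67537868 (+ strand) for Egr2, which has several starts, chr7:28379229-28379478 (− strand) for Zfp36 and chr17:26508473-26508722 (− strand) for Dusp1, a phosphatase of MAP kinases.
Fos: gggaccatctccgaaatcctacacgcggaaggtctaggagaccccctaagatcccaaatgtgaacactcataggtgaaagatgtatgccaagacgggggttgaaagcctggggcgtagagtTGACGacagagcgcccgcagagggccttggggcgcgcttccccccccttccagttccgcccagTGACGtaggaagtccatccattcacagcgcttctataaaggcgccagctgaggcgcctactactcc
Fosb: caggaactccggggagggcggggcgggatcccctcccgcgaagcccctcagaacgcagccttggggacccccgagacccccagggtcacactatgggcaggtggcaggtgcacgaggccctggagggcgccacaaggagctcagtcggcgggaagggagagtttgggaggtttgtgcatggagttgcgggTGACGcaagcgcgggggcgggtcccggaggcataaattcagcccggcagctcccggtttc
Atf3: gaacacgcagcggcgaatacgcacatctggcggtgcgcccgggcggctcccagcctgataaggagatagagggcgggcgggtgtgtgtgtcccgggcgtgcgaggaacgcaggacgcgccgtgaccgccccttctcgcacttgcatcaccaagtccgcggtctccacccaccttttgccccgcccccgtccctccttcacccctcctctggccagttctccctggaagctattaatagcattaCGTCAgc
Nr4a1: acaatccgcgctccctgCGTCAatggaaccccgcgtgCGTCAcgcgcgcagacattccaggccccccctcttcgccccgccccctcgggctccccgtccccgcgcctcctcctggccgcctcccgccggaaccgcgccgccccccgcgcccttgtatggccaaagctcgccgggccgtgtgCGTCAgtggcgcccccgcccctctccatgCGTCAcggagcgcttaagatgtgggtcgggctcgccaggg
Egr2: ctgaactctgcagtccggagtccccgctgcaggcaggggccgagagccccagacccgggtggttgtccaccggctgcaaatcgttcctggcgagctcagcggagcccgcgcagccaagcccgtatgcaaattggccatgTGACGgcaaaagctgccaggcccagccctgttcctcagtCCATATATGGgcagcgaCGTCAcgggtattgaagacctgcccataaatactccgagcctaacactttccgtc
Zfp36: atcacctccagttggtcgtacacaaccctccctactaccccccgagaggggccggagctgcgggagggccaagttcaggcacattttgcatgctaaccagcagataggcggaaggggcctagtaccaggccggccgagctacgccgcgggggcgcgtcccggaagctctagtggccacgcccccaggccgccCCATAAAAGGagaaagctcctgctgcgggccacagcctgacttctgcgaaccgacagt
Dusp1: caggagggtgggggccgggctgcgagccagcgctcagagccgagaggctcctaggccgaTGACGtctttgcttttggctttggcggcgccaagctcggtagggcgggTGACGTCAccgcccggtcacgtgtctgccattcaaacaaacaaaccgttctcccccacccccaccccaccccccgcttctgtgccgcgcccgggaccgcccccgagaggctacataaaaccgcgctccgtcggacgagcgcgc

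Of 30 listed immediate early genes with such a window (Egr4, which was not compared, among them), 18 held TGACG, against 3165 of 10877 compared genes (29.1%) and 17.8% of all 32851 windows. TGACGTCA was found in 4 of the 30, namely Btg2, Dusp1, Maff and Ppp1r15a, and in 2.91% of compared genes. The CArG box was found in 3, namely Dusp5, Egr2 and Zfp36, and in 1.43% of compared genes. The 4 windows of Fos, Fosb, Atf3 and Nr4a1 held only the TGACG core, and that of Egr2 both the CArG box and the core. A match is a run of letters, and whether a factor bound there was not measured.

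**Figure D2:**
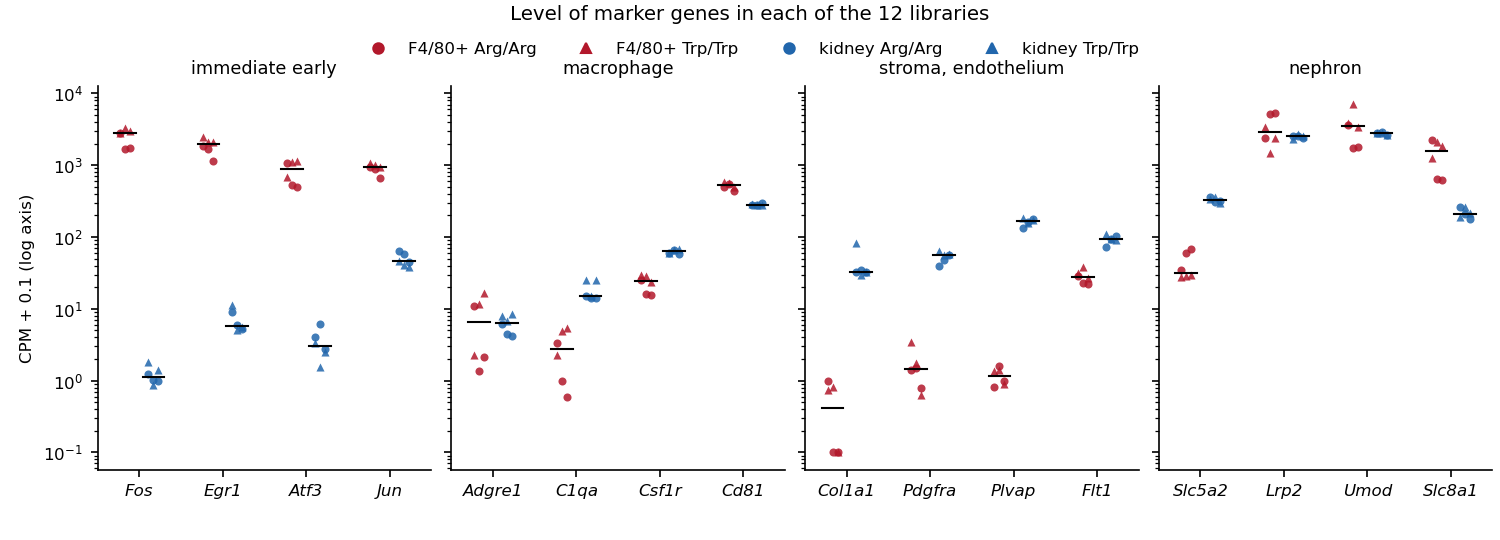
CPM + 0.1 on a log axis for 16 genes in each of the 12 libraries, with circles for Arg/Arg, triangles for Trp/Trp and a bar at the median of the 6 libraries of a type. Immediate early genes separate widely, Adgre1, Lrp2 and Umod overlap between sample types with a wide spread in F4/80+ preparations, and Plvap, Pdgfra and Col1a1 lie lower in every preparation.

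Cytokines, chemokines and targets of NF-κB, the transcription factor of inflammatory signalling, were mostly higher. Of 18 tested, 14 were higher and 2 lower, beside 26.4% and 37.1% of all genes tested. Of the 18, 8 were beyond 2-fold upward (4.68% of all genes), and the median log2 fold change was 1.59. Without F4/80+ Trp/Trp replicate 1, 4 were lower. Cxcl1, a chemokine that attracts neutrophils, was at 21.5 to 48.9 CPM in F4/80+ preparations (median 25.9) and 0.501 to 1.18 in kidney (median 0.869). Cxcl10, a chemokine for T cells, was at 22.6 to 85.3 CPM in F4/80+ preparations (median 65.2) and 2.32 to 4.20 in kidney (median 2.89). Nfkbiz, which encodes the nuclear regulator IκBζ, was at 133 to 266 CPM in F4/80+ preparations (median 189) and 9.07 to 13.5 in kidney (median 10.7). No library of these 3 overlapped between types, and they differed by 5.19, 4.18 and 4.12 on the log2 scale. The interleukin Il1b and the chemokine Ccl3, named after their values were seen, reached 7.53 to 104 CPM against 0.436 to 1.34 in kidney and 1.17 to 21.4 CPM against 0.067 to 0.307 in kidney, with log2 fold changes of 5.49 and 5.56. Ccl5 and Nfkbia were the lower members. In the wider family of interleukins, chemokines and their receptors, 18 of 54 were higher and 17 lower, beside 26.4% and 37.1% of all genes. The family's median was 0.09. Its lower members included Cxcl12, a chemokine that stromal cells make, at 20.1 to 28.8 CPM against 157 to 215, and Il33, an alarmin, at 0.582 to 1.37 CPM against 7.31 to 15.6 in kidney.

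Heat shock proteins and their co-chaperones, which refold damaged proteins, were higher for 11 of 18 and lower for 2. Their median was 0.46, and among all genes tested 26.4% were higher and 37.1% lower. Hspa1a, the inducible HSP70, was at 87.1 to 307 CPM in F4/80+ preparations (median 156) and 12 to 21.8 in kidney (median 17.6). Its near-identical copy Hspa1b was at 51.3 to 111 CPM in F4/80+ preparations (median 66.7) and 34.5 to 60.7 in kidney (median 41.6), and how reads were divided between the copies is not known. Dnajb1, a co-chaperone of HSP70, and Hsp90aa1, the inducible HSP90, differed by 2.36 and 1.61. Ahsa1 and Stip1, co-chaperones of HSP90, were the lower members. Genes of endoplasmic reticulum stress were called in both directions, with 7 higher and 9 lower of 21 and a median of -0.47. These counts lay near the 26.4% and 37.1% of all genes tested. Ddit3, which encodes the stress factor CHOP, was at 20.1 to 35.2 CPM against 9.41 to 11.5, a log2 fold change of 1.54, whereas Calr, the chaperone calreticulin, was at 301 to 405 CPM against 817 to 914, a log2 fold change of -1.29. With the GC content of transcripts taken into account the median of the stress list was -0.12.

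Macrophage genes were called in both directions, as genes were across the transcriptome. Of 20 resident macrophage markers, 6 were higher and 7 lower, near the 26.4% and 37.1% of all genes tested. None was beyond 2-fold as higher and 4 were as lower, beside 4.68% and 9.09% of all genes. The median of these markers was -0.35. Their summed share of counts was 0.0514 to 0.0893% in F4/80+ preparations and 0.050 to 0.0661% in kidney. Cd81 contributed more to that sum than any other gene of the list. This tetraspanin of many cell types was at 430.4 to 586 CPM in F4/80+ preparations (median 527) and 278 to 296 in kidney (median 279.8) and was higher by 0.87. Csf1r, the receptor for the macrophage growth factor CSF1, was at 15.7 to 29.3 CPM in F4/80+ preparations (median 24.1) and 58.1 to 68.3 in kidney (median 62.9) and differed by -1.48 on the log2 scale, without overlap. Adgre1 and C1qa were detected in all 12 libraries, while Aif1 was at 0 in at least 1 preparation. Fewer cells of a type and less RNA per cell cannot be told apart in bulk samples such as these. Without kidney Trp/Trp replicate 1, and with DESeq2, 2 macrophage genes were beyond 2-fold as lower.

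MHC class II genes, which present antigen to helper T cells, were lower for 6 of 8, beside 37.1% of all genes tested. Their median was -1.15. Cd74, the invariant chain, was at 15.9 to 112 CPM in F4/80+ preparations (median 66.7) and 139 to 344 in kidney (median 185), so the groups did not overlap, and the log2 fold change was -1.85 ± 0.30 (SE; edgeR adjusted p = 8.09e-05). H2-DMb1, a peptide-loading chain, differed by -1.38, and Ciita, the master regulator of the class, by -1.19. With GC content taken into account the median was -0.53 and 5 of the 8 were lower, as they were without kidney Trp/Trp replicate 1 and without F4/80+ Trp/Trp replicate 1. Other leukocyte markers were sparse. Of 12 monocyte and neutrophil genes 5 could be tested, with 1 higher (Lcn2, at 4.68 to 22.2 CPM against 2.30 to 6.29 in kidney) and 3 lower. Without kidney Trp/Trp replicate 1, 4 could be tested and 1 was lower, and with TMM, DESeq2 or the GC offset 2 of 5 were lower. Among them Ccr2, the monocyte chemokine receptor, was at 0.196 to 1.26 CPM against 3.99 to 11, while Itgal differed by -1.18 (-0.87 with the GC offset, edgeR adjusted p = 0.0638). Lcn2 is also made by injured tubules. Both tables held only 2 of 15 T and NK cell markers and 1 of 9 B and plasma cell markers. The kidney table alone held 10 more of the former, 6 of the latter and 4 monocyte and neutrophil markers. It alone also held 3 MHC class II genes, 7 adipocyte genes and the macrophage genes Trem2 and Fcgr1. The tested members of these lists are thus those that the F4/80+ table also held. Cd8a was at 1.52 to 7.41 CPM against 1.20 to 3.30, Cd4 at 0 to 1.44 CPM against 0.603 to 3.28 and Cd79b at 0 to 1.53 CPM against 0.225 to 2.99, and all 3 overlapped between types. Of these only Cd8a passed the test, at an edgeR adjusted p of 0.0459. It passed also with TMM, with DESeq2, with no filter and without F4/80+ Arg/Arg replicate 2, Arg/Arg replicate 3 or Trp/Trp replicate 2, and under no other setting, so the call was lost on leaving out any kidney library or any of the other 3 preparations.

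Genes of vessels and stroma were mostly lower. All 16 endothelial markers had a negative log2 fold change, 15 were lower in the test and 8 beyond 2-fold (5 with the GC offset described further on), with a median of -1.39. Plvap, which forms the diaphragms of fenestrated capillaries (chr8:71497765-71511752, mm10), was at 0.727 to 1.52 CPM in F4/80+ preparations (median 1.07) and 135 to 184 in kidney (median 167). Every preparation held it at about 1 CPM, the log2 fold change was -7.24 ± 0.16 (SE; edgeR adjusted p = 7.24e-13), and the mean CPM in kidney was 153 times that in the preparations. Plvap overlaps Gtpbp3 on the other strand, and whether counting used strand is not given in the sources used here. Flt1, a receptor for vascular endothelial growth factor, was at 22 to 38.4 CPM in F4/80+ preparations (median 27.8) and 73.4 to 109 in kidney (median 92.4), a far smaller difference of -1.73. Robo4, an endothelial guidance receptor, differed by -2.70 and Esm1, a proteoglycan of vessel tips, by -5.74. The summed endothelial list took 0.0265 to 0.0475% of counts in F4/80+ preparations and 0.0820 to 0.109% in kidney.

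Fibroblast, pericyte and smooth muscle markers were lower for 9 of 13 and higher for 3, with a median of -1.80. Pdgfra, the growth factor receptor of fibroblasts, was at 0.525 to 3.32 CPM in F4/80+ preparations (median 1.35) and 39.3 to 64.3 in kidney (median 56.1), a log2 fold change of -5.15. Col1a1, the main chain of type I collagen, was at 0 to 0.872 CPM in F4/80+ preparations (median 0.314) and 29.3 to 81.8 in kidney (median 32.2), and it was -6.80 on the log2 scale with counts of 0 in some preparations. Col3a1 was at 0.379 to 1.88 CPM against 48.8 to 102 and Col1a2 at 0.632 to 4.67 CPM against 71.6 to 141 in kidney. The 3 higher members were genes of contractile mural cells, here named after their values were seen. They were Acta2 at 78.8 to 322 CPM against 61.9 to 171, Myh11 at 71.6 to 212 CPM against 37.1 to 95.7 and Rgs5 at 143 to 583 CPM against 72.8 to 152, with log2 fold changes of 1.26, 1.53 and 1.69. Each of these 3 overlapped between sample types. The other listed genes of pericytes and smooth muscle, namely Tagln, Des, Pdgfrb, Cspg4, Notch3 and Ren1, were lower or not called. Mural genes therefore did not move together. Kidney Trp/Trp replicate 1 held the highest kidney values of the collagens, and without it the list again had 9 lower and 3 higher.

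Among 21 genes of fibrillar and basement membrane matrix, 18 were lower and none higher, 14 beyond 2-fold, with a median of -1.75. With the GC offset 16 were lower and 2 higher. Col4a1, of basement membranes, was at 60.4 to 101 CPM in F4/80+ preparations (median 79.7) and 291 to 359 in kidney (median 323) (-1.97), a smaller difference than for Col1a1, Col1a2 and Col3a1. Col5a2, Lamb1 and Lamc1 did not pass the test. Of the 28 collagen genes that both tables held, 19 were lower, 3 higher (6 with DESeq2) and 13 beyond 2-fold as lower. Their median of -1.35 became -0.50 with the GC offset. Col5a1, Col6a1 and Col6a2 were held by the kidney table alone and Col10a1 by the F4/80+ table alone. Igfbp3, which binds insulin-like growth factors, was at 1.14 to 10.8 CPM in F4/80+ preparations (median 3.07) and 265 to 378 in kidney (median 351), a log2 fold change of -6.48. Prelp, a matrix proteoglycan, and Lamc3, a laminin chain, differed by -5.91 and -5.23.

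Podocyte markers were lower for 8 of 11 and higher for 2, with a median of -1.61. Synpo, an actin-binding protein of foot processes, was at 17.1 to 49.7 CPM in F4/80+ preparations (median 24.7) and 70.4 to 112 in kidney (median 81.4), and Podxl, their surface sialomucin, at 79.9 to 168 CPM against 247 to 371. Of the 3 adipocyte markers that both tables held, Fabp4, a fatty acid carrier also found in capillaries, was at 4.40 to 12.5 CPM in F4/80+ preparations (median 6.53) and 68.8 to 155 in kidney (median 75.8), and all 3 were lower, Pnpla2 only without the GC offset. Red blood cell genes split. Hba-a1, a globin chain, was at 0 to 0.897 CPM in F4/80+ preparations (median 0.417) and 6.0 to 17.1 in kidney (median 8.53). Alas2, the erythroid enzyme of haem synthesis, went the other way at 3.42 to 5.38 CPM against 0.78 to 1.76, as did Slc4a1, the anion exchanger that intercalated cells also express. All 3 globin chains tested were lower, and another of the list, Hba-a2, was held by the kidney table alone.

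**Figure D3:**
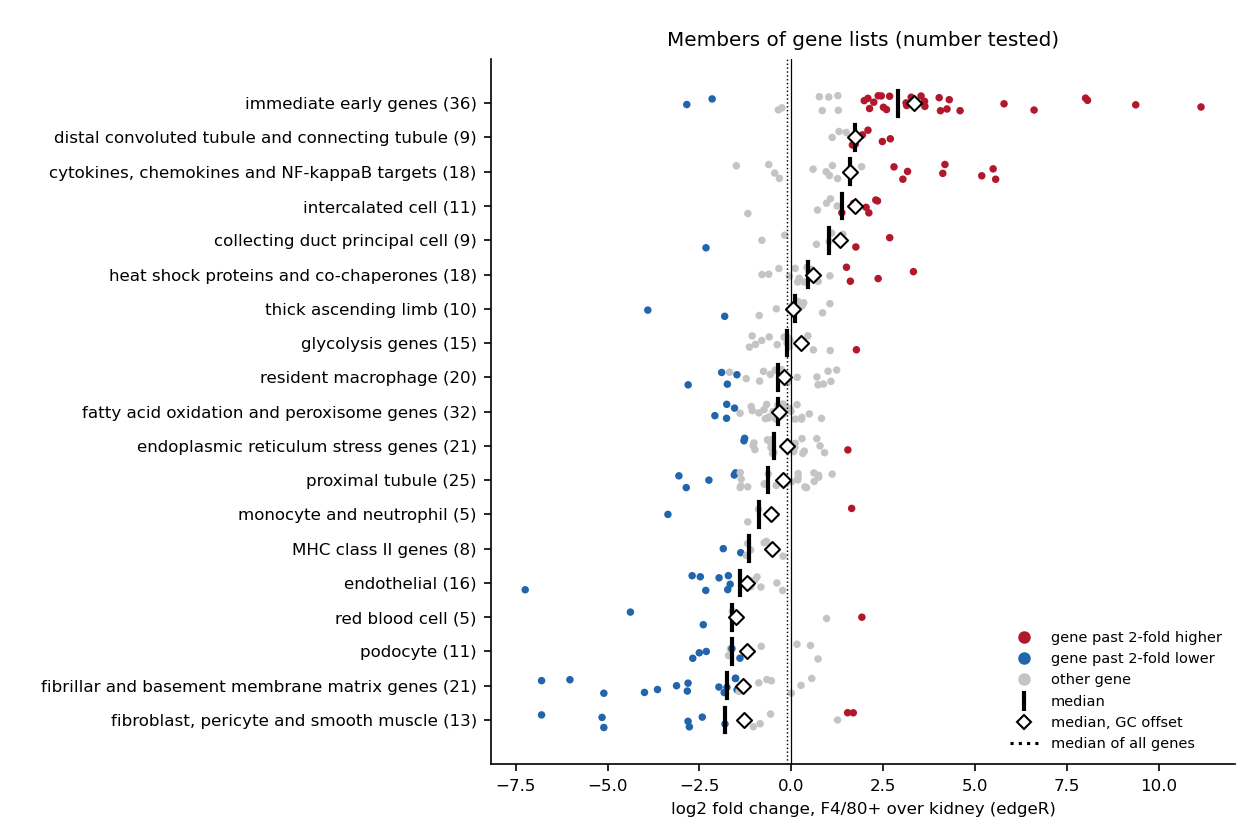
Log2 fold change, F4/80+ over kidney, of every tested member of 19 gene lists with at least 5 tested genes, ordered by median. Black bars are medians, diamonds the medians with the GC offset and the dotted line the median of all genes: immediate early genes and distal nephron markers lie right of it, vascular, stromal, matrix and podocyte markers left.

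Along the nephron, markers of the distal tubule and collecting duct were mostly higher. Those of the proximal tubule and thick ascending limb were called in both directions, as were all genes tested (26.4% higher and 37.1% lower). Proximal tubule markers were lower for 12 of 25 (10 with the GC offset) and higher for 5, with a median of -0.63 (-0.22 with the GC offset). Without F4/80+ Trp/Trp replicate 1, 3 were higher. The proximal tubule markers together took 2.36 to 7.33% of counts in F4/80+ preparations and 4.46 to 5.32% in kidney, so the preparations spanned the kidney range on both sides. Slc5a2, the glucose transporter SGLT2 of the early proximal tubule, was at 27.3 to 68.9 CPM in F4/80+ preparations (median 31.8) and 293 to 361 in kidney (median 329), without overlap, and differed by -3.06 ± 0.20 (SE; edgeR adjusted p = 2.26e-08). Slc22a12, the urate transporter URAT1, was at 90.2 to 298 CPM in F4/80+ preparations (median 171) and 1233 to 1505 in kidney (median 1316). Aqp1, a water channel, was at 129 to 524 CPM against 1316 to 1496 in kidney. Slc34a1, the phosphate cotransporter, was at 1063 to 3389.9 CPM in F4/80+ preparations (median 2042) and 4805 to 5539.9 in kidney (median 5280.1). Against these, Cyp2e1 was at 1577 to 5549 CPM against 1172 to 1396 and Slc22a6, the organic anion transporter OAT1, at 642 to 1846 CPM against 678 to 877, and both were among the 5 higher members. They were named after their values were seen. The 6 kidneys lay close together for these genes, while the preparations spread widely.

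Thick ascending limb markers were higher for 2 of 10 and lower for 4, near the 26.4% and 37.1% of all genes tested. Their median was 0.10. Irx1, a transcription factor of the segment, was at 0.881 to 5.76 CPM in F4/80+ preparations (median 2.84) and 38.6 to 56.0 in kidney (median 45.2), the widest difference in the list. Cldn19, a claudin of its tight junctions, was lower by -1.81 on the log2 scale (-0.94 with the GC offset), and Kcnj1, the potassium channel ROMK, was higher by 0.85 with overlapping groups.

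Markers of the distal convoluted and connecting tubule were all higher, 9 of 9, with 6 beyond 2-fold and a median of 1.74, and all 9 were also higher with TMM, with DESeq2 and with the GC offset. Their summed share was 0.797 to 2.75% in F4/80+ preparations and 0.563 to 0.601% in kidney. Slc8a1, a sodium-calcium exchanger, was at 624 to 2220.5 CPM in F4/80+ preparations (median 1557) and 179 to 263 in kidney (median 211). Trpm6, a magnesium channel, was at 99.7 to 305 CPM in F4/80+ preparations (median 199) and 32.6 to 52.7 in kidney (median 42.1). Tmem52b was at 1212 to 3112 CPM in F4/80+ preparations (median 2487) and 369 to 409.8 in kidney (median 390.2). Every preparation lay above every kidney for these 3, which differed by 2.70, 2.09 and 2.48. Klk1, tissue kallikrein, was at 1629 to 7672 CPM in F4/80+ preparations (median 6925) and 1788 to 2172 in kidney (median 1971) and overlapped through Arg/Arg replicate 3 alone, the lowest of the preparations.

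Intercalated cells, which secrete acid or base, were marked by 9 higher and 1 lower of 11 genes, with a median of 1.38. Atp6v1g3 and Atp6v0d2, subunits of their proton pump, were at 186 to 661 CPM against 65.4 to 87.1 and 147 to 501 CPM against 52.6 to 57.0 in kidney. Kit, a receptor tyrosine kinase, was at 42.7 to 106 CPM against 25 to 27.5. The lower gene was Atp6v1b1, another pump subunit, at 37.8 to 87.3 CPM against 141 to 152. Over the 23 subunits of the vacuolar proton pump that both tables held, 6 were higher and 6 lower (10 higher with DESeq2). Among all genes tested 26.4% were higher and 37.1% lower. Principal cell markers were higher for 6 of 9 and lower for 2 (1 with the GC offset), with a median of 1.03. Scnn1g, a chain of the epithelial sodium channel, was at 132 to 360.1 CPM in F4/80+ preparations (median 286) and 57.2 to 86.0 in kidney (median 74.1). Tmem213, which overlaps the proton pump subunit gene Atp6v0a4 on the other strand, was at 86.4 to 279 CPM against 29.1 to 36.7. Its placing among principal cell markers was not tested. The lower genes were water channels, Aqp4 at 5.81 to 34.3 CPM against 60.6 to 107 and Aqp2 at 43.1 to 223 CPM against 151 to 229.

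The most abundant transcripts were renal in both sample types. Kap, an androgen-regulated gene of the proximal tubule, led in the preparations at 8032 to 25899 CPM in F4/80+ preparations (median 13514) and 11123 to 15136 in kidney (median 13465), and did not pass the test (0.18 ± 0.21 (SE; edgeR adjusted p = 0.464)). Gpx3, the plasma glutathione peroxidase that the kidney secretes, led in kidney at 3748 to 11713 CPM in F4/80+ preparations (median 7053) and 20655 to 23531 in kidney (median 22572) and was lower by -1.65 on the log2 scale. Acsm2, an enzyme of medium-chain fatty acid use, was at 3291 to 10182 CPM against 4278 to 5033 in kidney and did not pass the test. The 100 most abundant genes of a library took 22.7 ± 2.25% of counts in F4/80+ preparations and 20.8 ± 0.486% in kidney (SD, n = 6; exact permutation test, two-sided, p = 0.0823). Genes at or above 1 CPM numbered 12683 ± 307 and 12818 ± 69.5 (SD, n = 6; exact permutation test, two-sided, p = 0.361). At or above 5 CPM the numbers were 10506 ± 327 and 10971 ± 101, without overlap (SD, n = 6; exact permutation test, two-sided, p = 0.00216, the smallest that 6 against 6 can give).

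Apart from vessel and matrix genes, the largest lower differences included members of families with close copies. Serpina1f and Serpina1a, of the α1-antitrypsin cluster, were at 0 to 1.66 CPM in F4/80+ preparations (median 0.968) and 171 to 203 in kidney (median 195) and at 0 to 0.788 CPM against 44.2 to 58.4. Serpina1d was at 1.41 to 6.17 CPM against 176 to 198. Near-identical paralogs make the split of reads within this cluster uncertain. Mettl7a2, a putative methyltransferase that overlaps Methig1 on the same strand (chr15:100353200-100361840, mm10), was at 0 to 1.44 CPM in F4/80+ preparations (median 0.646) and 114 to 154 in kidney (median 130.1). Ceacam2, an adhesion molecule, was at 0.449 to 1.06 CPM against 43.6 to 51.1. In the upward direction Zbed5, a transposase-derived gene that overlaps Phkg1 on the other strand, was at 72.6 to 112 CPM in F4/80+ preparations (median 85.7) and 1.41 to 1.99 in kidney (median 1.64), and Ttn, the giant muscle protein titin, at 22.4 to 50.2 CPM against 1.25 to 2.14 in kidney.

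Counts of metabolic genes stand beside 26.4% higher and 37.1% lower among all genes tested, from which no test set them apart. Fatty acid oxidation and peroxisome genes were lower for 18 of 32 and higher for 3, with a median of -0.36, but lower for 12 with TMM and higher for 6 with the GC offset. Acadvl, which starts the oxidation of long chains, was at 50.6 to 64.5 CPM in F4/80+ preparations (median 57.2) and 189 to 198 in kidney (median 194), without overlap. Pex5, the import receptor of peroxisomes, and Acot1, an acyl-CoA thioesterase, differed by -1.54 and -1.76. Glycolysis genes were higher for 4 of 15 and lower for 4, with a median of -0.11 that became 0.27, with 7 higher, under the GC offset. Pfkfb3, an inducible activator of glycolysis, was at 42.7 to 132 CPM against 21.5 to 27.0, and Gapdh at 2446 to 4147 CPM against 1459 to 1581 in kidney, while Pgam1 was lower at 48.3 to 68.8 CPM against 114 to 129.

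Large families were called in both directions, as were all genes tested (26.4% higher and 37.1% lower), and no test set them apart. Solute carriers were higher for 62 of 306 and lower for 129, among them Slc38a3, an amino acid transporter, at 1.37 to 6.73 CPM against 63.6 to 79.0 in kidney, and Slc7a12 and Slc39a8, which differed by -4.98 and -2.62. Cytochrome P450 enzymes were higher for 17 of 46 and lower for 17. Cyp1b1 and Cyp7b1 fell by 5.05 and 4.11 on the log2 scale, and Cyp2s1 was higher by 1.65. Zinc finger proteins were higher for 85 of 360 and lower for 107, with Zfp644 at 147 to 221 CPM against 31.1 to 33.4 and Zfp219 at 4.31 to 7.22 CPM against 40.2 to 51.7 in kidney. Of the 13 replication-dependent histones that both tables held, 7 were higher and 2 lower. H1f4 was at 9.69 to 28.3 CPM against 1.07 to 2.4, and H4c9 and H1f2 were the lower members. Tubulins were higher for 6 of 12, with Tuba1c at 154 to 414 CPM against 43.7 to 50.5 and Tubg1 lower by -1.18. Keratins were higher for 3 of 9 (5 with the GC offset) and lower for 2, among them Krt19 at 0.126 to 2.33 CPM against 6.16 to 37.6 in kidney, where Trp/Trp replicate 1 gave the top value, and Krt87 at 0.788 to 3.34 CPM against 0.0639 to 0.348.

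Subunits of large complexes were called in both directions, and their counts stand beside 26.4% higher and 37.1% lower among all genes tested, from which no test set them apart. Cytosolic ribosomal proteins were higher for 22 of 83 and lower for 38, with a median of -0.29, but for 30 and 28 with the GC offset (median -0.02). Their log2 fold changes ran from -2.04 (Rps21) to 1.45 (Rpl24) without the offset. Rps14 was at 53.7 to 128 CPM against 345 to 401 in kidney. The SD between these 83 genes was 0.722 and with the GC offset 0.734. Many of them have processed copies that could share their reads, which was not tested. Respiratory chain subunits encoded in the nucleus were higher for 24 of 81 and lower for 27, with Atp5g1 higher by 1.56 and Ndufb6 lower by -1.17. TMM gave 31 and 18, DESeq2 33 and 16, and the GC offset 37 and 20. Mitochondrial ribosomal proteins were higher for 24 of 77 and lower for 20 (12 with TMM), of which Mrps34 and Mrps28 differed by -2.0 and 1.23. Proteasome subunits were higher for 12 of 37 and lower for 12, with Psmd3 at 46.9 to 73.5 CPM against 166 to 184 in kidney. Translation initiation factors were higher for 20 of 54 and lower for 14, among the latter Eif5a and Eif3b, at -1.57 and -1.55. Aminoacyl-tRNA synthetases were lower for 16 of 34 and higher for 5 (9 with the GC offset), with Vars lower by -1.24 but by -0.30 with the GC offset.

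A property shared across functions was base composition. Genes were sorted by the GC content of their longest coding transcript in GENCODE vM21, for which 13551 of the 13578 tested genes (99.8%) had a value. In the quintile of genes with the lowest GC content the median log2 fold change was 0.28, and it declined through 0.14, -0.08 and -0.38 to -0.75 in the quintile with the highest. Genes beyond 2-fold as lower made up 2.36% of the former and 22.9% of the latter. The 636 higher genes beyond 2-fold had a median GC content of 47.3%, the 1234 lower ones 56.0% and all genes 50.4%. The gradient stood in every F4/80+ library: the lowest quintile exceeded the highest by 0.219 to 1.44 on the log2 scale, against -0.114 to 0.0654 in kidney. F4/80+ Trp/Trp replicate 1 gave the 0.219 and the other 5 at least 0.716. It also stood within each quintile of genes by mean level, with differences of 0.942 to 1.07, and within each quintile by transcript length, with 0.643 to 1.51.

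**Figure D4:**
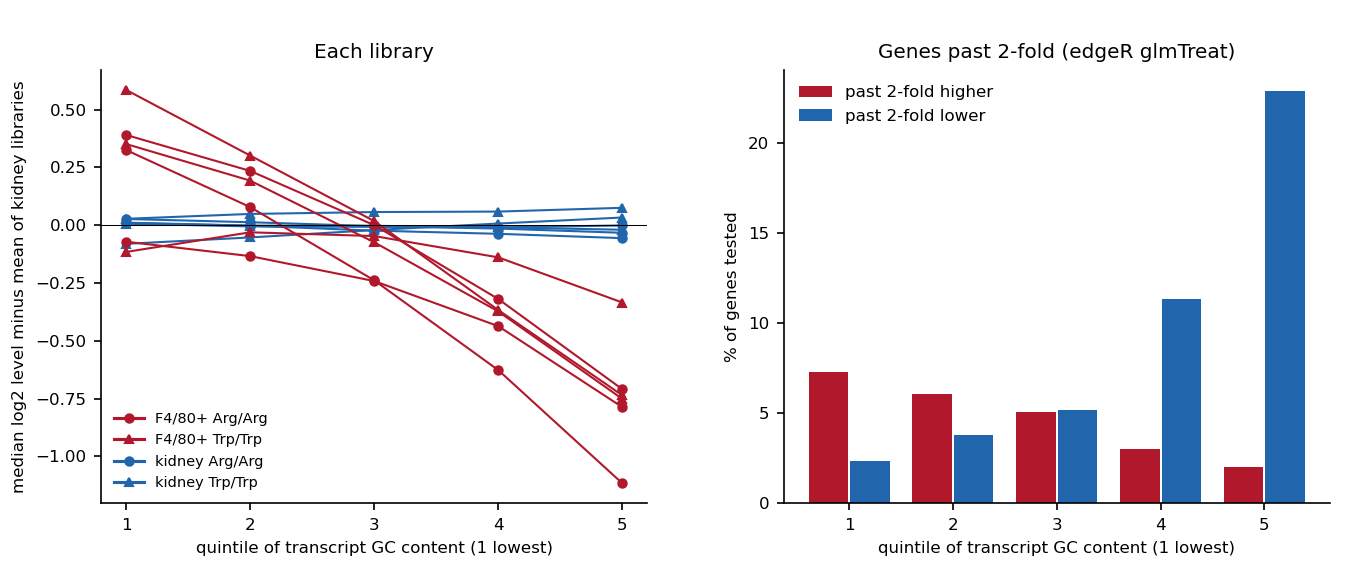
Left, the median log2(CPM + 0.5) of each library minus the mean of the kidney libraries (for a kidney library, of the other 5) in quintiles of genes by transcript GC content. Right, the percentage of tested genes in each quintile past 2-fold in the glmTreat test: the 6 F4/80+ lines slope down, and genes past 2-fold as lower rise from 2.36 to 22.9%.

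An offset for GC content in each library, chosen after seeing the data, brought the medians of the quintiles to between -0.02 and 0.02. With it 4385 genes were higher and 4326 lower, and beyond 2-fold 774 and 725, so the count of lower genes past 2-fold fell from 1234 by more than 1.5 times. Of the 8632 calls, 6859 (79.5%) kept call and direction and 132 were called in the opposite direction. The gene groups of vessels, matrix, distal nephron and immediate early response kept their sign, with medians of -1.19, -1.30, 1.74 and 3.34. Fos was at 11.34, Plvap at -6.32 and Slc5a2 at -2.52 in that fit. Genes with a long genomic span were also higher, with a median of 0.25 in the longest quintile and -0.30 in the shortest. By transcript length the longest quintile stood at 0.16 and the other 4 between -0.26 and -0.12.

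Genes that only 1 of the tables held lie outside the test. The kidney table alone held 1615 genes, 346 of them with a mean of at least 1 CPM, led by Cxcl14 at 35.7 CPM, Bcat1 at 33.6 and Abca8a at 30.0. The matrix gene Col6a1 was at 26.1 CPM there. The F4/80+ table alone held 112 protein-coding genes, 36 of them at a mean of at least 1 CPM, led by Fam71a at 13.5 CPM and the chemokine Cxcl2 at 6.02. Ccl4, another chemokine, was at 4.43. Both tables lack rows with few counts, the smallest row sums being 12 and 10, so a missing gene may lie below that limit and no fold is given.

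Whether the difference between sample types depended on genotype was tested gene by gene. The interaction of genotype with sample type was called for 0 of 13578 genes by edgeR (0% called; 859 genes had an unadjusted p under 0.05), and DESeq2 called 7. Without F4/80+ Arg/Arg replicate 1 edgeR called 844, so this count rests on that library. Within Arg/Arg mice 2170 genes were higher and 4012 lower, and within Trp/Trp mice 3009 and 3722.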

How the data were processed

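Counts were taken from the deposited tables of each sample type, in which the authors gave raw counts per gene and library as whole numbers. The log2 fold change, ratio (fold), p-value, score and signal (mean normalised count) columns that the authors deposited for their genotype comparison were not used. STAR, DRAGEN, DESeq2 and mm10 are named, without roles, in the submitters' processing notes, and strand use and annotation are not given in the sources used here. Libraries were matched to columns by their titles.

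Members and gene lists were chosen with earlier results of these data known. The tables were joined on gene identifier. Library size was the column sum over the 13733 shared genes, with no further factor, and filterByExpr (minimum count 10, minimum total 15) kept 13578. Sample types were compared with edgeR 4.0.16 (R 4.3.3; glmQLFit, glmQLFTest, and glmTreat at 2-fold), genotype as covariate, Benjamini-Hochberg adjustment over all genes tested and a threshold of 0.05. Each SE was obtained as the size of the log2 fold change over √F. The edgeR p-values set the difference between sample types against a spread estimated over all 12 libraries together. That spread, as the common biological coefficient of variation, was 0.279 in F4/80+ libraries and 0.0938 in kidney when estimated apart. On simulated data with known changes edgeR recovered 34.3% of 67 genes changed 1.5-fold, 86.6% of 67 at 2-fold and 100% of 66 at 4-fold. The run held 13524 genes, and the changed ones were drawn from those without low counts. Apart from these changes the simulated libraries shared the same mean profile and had no GC gradient. The data differ in both respects, so these rates need not hold for them.

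Named genes were the 12 largest changes in each direction among called genes whose libraries did not overlap and whose higher type was at 10 CPM or more throughout, the 5 most abundant in each type, Fos, Egr1, Umod, Lrp2, C1qa, Adgre1 and Sh2b3, and the 3 genes (or fewer) with the lowest p in each of 22 lists and 15 families. Genes named only by a number and pseudogenes were left out, and some genes that the rule names are not reported here. Others are said to be named after their values were seen, or complete a count. Alternatives were TMM, DESeq2 1.42.0, no filter, limma 3.58.1 (voom with quality weights), a replicate block, no genotype term, each genotype alone, each library left out and, added after seeing the data, an offset per library from a lowess curve (span 0.3) of log2(CPM + 0.5) on transcript GC content. Plots add 0.1 to CPM.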

Additional observations from a re-analysis of the deposited data

Results flagged for a closer look

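In groups of 6 libraries, the highest or lowest value was flagged where its gap to the next took up more of the range than Dixon's 95% critical value for 6 samples. Chance flags about 1 in 20 such groups. Of 266 groups examined over the named genes and library measures, 26 (9.77%) were flagged, and the genes are not independent of each other. All values are CPM unless said otherwise.

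The kidney library Trp/Trp replicate 1 gave 17 of them, each as the highest of its type. Its collagen levels were 81.8 for Col1a1 (other kidneys 29.3 to 34.8), 102 for Col3a1, 141 for Col1a2 and 43.9 for Col15a1. Genes of fat were at 155 for Fabp4 (others 68.8 to 86.4) and 18.6 for Plin4. Leukocyte genes were at 3.28 for Cd4 and 2.99 for Cd79b, and Cxcl12 at 215. Epithelial and injury genes were at 37.6 for Krt19 (others 6.16 to 10.6), 0.348 for Krt87 and 6.29 for Lcn2. The remaining genes were Synpo at 112, Syvn1 at 68.8, Vars at 61.9 and Egr2 at 1.59. Genes at or above 1 CPM numbered 12955 in it, against 12767 to 12816 in the other kidneys.

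Kidney Arg/Arg replicate 1 was the highest for Hba-a1 at 17.1, Alas2 at 1.76 and Cldn19 at 50.4, and the lowest for Robo4 at 19.2. F4/80+ Trp/Trp replicate 2 was the highest preparation for Igfbp3 at 10.8 and Cyp1b1 at 6.11, both still below every kidney. F4/80+ Arg/Arg replicate 3 was the lowest for Dnajb1 at 217 and Ddit3 at 20.1, both still above every kidney. F4/80+ Trp/Trp replicate 1 was the highest preparation for Synpo at 49.7.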

How the results depend on the processing

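Limits come first from the design: sample type is confounded with isolation, depth and table. The GC gradient moves with sample type, and its part beyond the offset was not tested. Depth limits genes near 1 CPM in the preparations. Leaving out each library in turn gave 3272 to 3862 genes higher, 4713 to 5150 lower, and beyond 2-fold 533 to 764 and 1126 to 1352. The differences in genes at or above 1 CPM ran from -192 to -47.1, in the share of the 100 most abundant genes from 1.30 to 2.37 percentage points (p = 0.0433, exact permutation test, without F4/80+ Trp/Trp replicate 2), and the interaction count from 0 to 844 (smallest adjusted p 0.0105). Counts moved by over 1.5 times for Arg/Arg libraries alone (2170 higher, 309 beyond 2-fold), limma (399 and 780 beyond 2-fold), the GC offset (725 lower beyond 2-fold, 677 with the replicate block as well) and DESeq2 (7 for the interaction). At 5 CPM the difference in gene number was -465 and passed the test, and for the 10 most abundant genes the share differed by -0.399 points. Sh2b3, called lower at -0.69, lost its call and its sign with the GC offset (0.0218) and with the block added (0.0198). The other reversed signs belonged to genes that had not passed the test: Kap -0.13, Acsm2 -0.0306, Lrp2 -0.0404 and Cd79b 0.0656 in Trp/Trp alone; Umod -0.21 and Adgre1 -0.0851 in Arg/Arg alone; Adgre1 -0.36 with limma and -0.20 with the replicate block; Cd79b 0.12 with the GC offset; and Kap -0.10, Adgre1 -0.29 and Cd79b 0.29 with the block added. Without 1 library, Adgre1 was -0.29 to 0.38 and Cd79b -0.557 to 0.50, reaching 0.00216 (without F4/80+ Arg/Arg replicate 2) and 0.50 (without kidney Trp/Trp replicate 1). Adgre1 was -0.29 without F4/80+ Arg/Arg replicate 1 and -0.13 without F4/80+ Trp/Trp replicate 3. The cause was not tested.

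Same-numbered libraries of a genotype correlated at -0.158 to 0.0401 in their deviations from group means, 0 of 6 pairs over 0.1 and 0 libraries best with their own number, so the numbers gave no pairing. The replicate block gave 3179 genes higher and 4879 lower, and changed no count by over 1.5 times. Of the 131 named genes, TMM and no filter left all on the same side with the same sign, and DESeq2 did so for 129. Of the 8632 calls, 91.5 to 92.5% were shared in direction by TMM, DESeq2, limma and the block, none reversed.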
